A study of Mus musculus with 18 samples.

Results

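The cluster of miR-221 and miR-222 is a pair of neighbouring microRNA genes on the mouse X chromosome, Mir221 and Mir222. Each hairpin gives a mature miRNA from either arm, so the cluster has 4 members, mmu-miR-221-3p, mmu-miR-221-5p, mmu-miR-222-3p and mmu-miR-222-5p (the species prefix is left out from here on). They were taken from the miRNA table by exact name, with no measured value used, and all 4 of 4 were found among its 1966 miRNAs and passed the filter on low values, which 726 miRNAs passed. Small RNA libraries had been sequenced from mice: 3 adrenal glands of wildtype animals (AG), 7 tumors of R26 IGF2BP1 mice (TI) and 8 of R26 IGF2BP1/MYCN mice (TIM). The AG carried no Cre recombinase (CRE -). Of the TI, 6 were labelled IGF2BP1 +/+, CRE + and 1 was labelled IGF2BP1 +/-, CRE +, and the TIM were labelled IMP1/MYCN, CRE +, where IMP1 is another name of IGF2BP1. In the tumor mice, a Cre driven by the promoter of Dbh, an enzyme of catecholamine synthesis, removed a stop cassette in sympatho-adrenal cells and so switched on IGF2BP1 without its own 3′UTR, alone or together with MYCN, from the Rosa26 locus. The labels place 1 TI and 2 TIM in the adrenal gland and 1 TIM at the spine, and name no site for the other tumors. They give no age or sex, and do not state that each library came from a different animal, so p-values measure the spread between these libraries.

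miRNAs are short RNAs that guide Argonaute proteins to messenger RNAs, mainly through the seed, the bases near the 5′ end of the miRNA that pair with a matching site in the 3′UTR, and so lower the output of those messages. miR-221 and miR-222 are best known for targeting Cdkn1b, which encodes the cyclin-dependent kinase inhibitor p27Kip1, and are also known regulators of the related inhibitor Cdkn1c (p57Kip2) and of the receptor tyrosine kinase Kit. They are expressed in endothelial and smooth muscle cells and are abundant in several human cancers. IGF2BP1 is an RNA-binding protein that shields bound messages from miRNA-directed decay, and MYCN is the transcription factor whose gene is amplified in high-risk neuroblastoma. The groups thus ask how the cluster stands in tumors driven by IGF2BP1, and how it stands where MYCN is expressed with it. The study's genotyping found no wildtype Rosa26 allele in the TIM, so they carry IGF2BP1 on 1 allele and MYCN on the other, whereas the 6 TI labelled IGF2BP1 +/+ carry IGF2BP1 on both. The presence of MYCN and the lower dose of the IGF2BP1 transgene cannot be told apart in TIM against TI. The study also reported shorter survival of IGF2BP1/MYCN mice than of homozygous IGF2BP1 mice, and tumors more often at the adrenal gland and spine. Age at collection and tumor site may thus differ between TIM and TI too, and cannot be told apart from genotype. The study found most tumors of IGF2BP1 mice in the lower abdomen rather than the adrenal gland. The tumors thus differ from AG in Cre and genotype, and most TI also in site, and age may differ too. These cannot be told apart in the comparisons with AG.

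In the RefSeq annotation of GRCm38.p6, both hairpins lie on the minus strand, Mir221 at chrX:19146294-19146388 and Mir222 at chrX:19146893-19146971, with 504 bases between them and 678 bases from end to end. In GENCODE vM39, on build GRCm39, both fall inside the long noncoding RNA gene Gm26652 on the same strand. Of the 12 Gm26652 transcripts that span Mir221, 11 have the hairpin in an intron and 1 in an exon, and of the 13 that span Mir222, 11 have it in an intron and 2 overlap it with an exon. The mature sequences from RefSeq are shown because the members fall into groups by seed, whose bases, 2 to 8, are in capitals. miR-1928, the other miRNA with the seed of the 3p arms among 1679 mature names, is shown beside them.
miR-221-3p: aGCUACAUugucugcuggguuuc
miR-222-3p: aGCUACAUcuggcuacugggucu
miR-221-5p: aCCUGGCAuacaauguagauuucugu
miR-1928: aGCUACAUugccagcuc

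The 3p arms of Mir221 (chrX:19146307-19146329) and Mir222 (chrX:19146901-19146923) thus shared their first 8 bases and 11 of 23 positions. The 5p arm of Mir221 (chrX:19146344-19146369) carried a seed of its own that no other mature name had. miR-1928, from chromosome 1, had 0 reads in all 18 libraries, of 338938537 reads on miRNAs in all. The seed shared by the 3p arms was therefore carried, among the miRNAs matched to RefSeq, only by reads of miR-221-3p and miR-222-3p in these libraries.

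The letters that pair with this seed, ATGTAGC, were looked for on the sense strand of the longest 3′UTR of each protein-coding gene in GENCODE vM39. They occurred in 12.3% of 20955 3′UTRs. The 3 known target genes each held them, as the stretches of 30 bases from build GRCm39 show, with the match in capitals.
Cdkn1b, chr6:134901373-134901402, plus strand: atctgcctctaaaagcattggATGTAGCat
Cdkn1c, chr7:143012661-143012690, minus strand: ttcggctgggacctttcgttcATGTAGCag
Kit, chr5:75815631-75815660, plus strand: atccttaatgatgggagatatATGTAGCaa
Kit, chr5:75817162-75817191, plus strand: gctttttttgtaaatattgaaATGTAGCaa

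The match was followed by an A in each of them. The 3′UTR of Cdkn1b had 3439 bases and 1 match, and 22.5% of the 3′UTRs within 20% of that length held a match. For Cdkn1c, with 767 bases and 1 match, that share was 4.89%, and for Kit, with 2199 bases and 2 matches, it was 15.4%. A match is a description of the sequence, and the messenger RNAs were not measured in these libraries.

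The libraries held 21644743 to 23332704 reads on miRNAs in AG, 11802837 to 21268124 in TI and 11641696 to 23435621 in TIM. Levels are given in CPM (counts scaled to a common library size) as scaled by the authors with TMM factors, which correct for a few abundant miRNAs taking up much of a library. One such miRNA, miR-148a-3p, took 4.19 to 6.94% of the reads in AG, 2.29 to 61.9% in TI and 6.53 to 44.2% in TIM, and the factors ran from 0.927 to 0.991, 0.700 to 0.934 and 0.802 to 1.85. A level of 3 reads corresponded to 0.101 to 0.272 CPM in the tumors and 0.139 to 0.140 CPM in AG. TI library 5, numbered in column order, stood apart from the other TI in its low share of miR-148a-3p, 2.29% against at least 30.1%. The table's columns carry the group of a library but not its sample, so the IGF2BP1 +/- tumor and the tumors with a named site could not be told from the others.

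All 4 members fell in both kinds of tumor against AG (limma), where 29.3% of the 726 tested miRNAs fell in TI and 25.9% in TIM. Summed over the members, the level was 444 ± 76.0 CPM (SD, n = 3) in AG against 50.9 ± 33.9 CPM (SD, n = 7) for TI and 50.4 ± 26.1 CPM (SD, n = 8) for TIM. For each member, the highest tumor library was below the lowest AG library, as it was for 24.4% of the tested miRNAs in TI and 22.0% in TIM. TIM did not differ from TI by the test for any member.

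**Figure D1:**
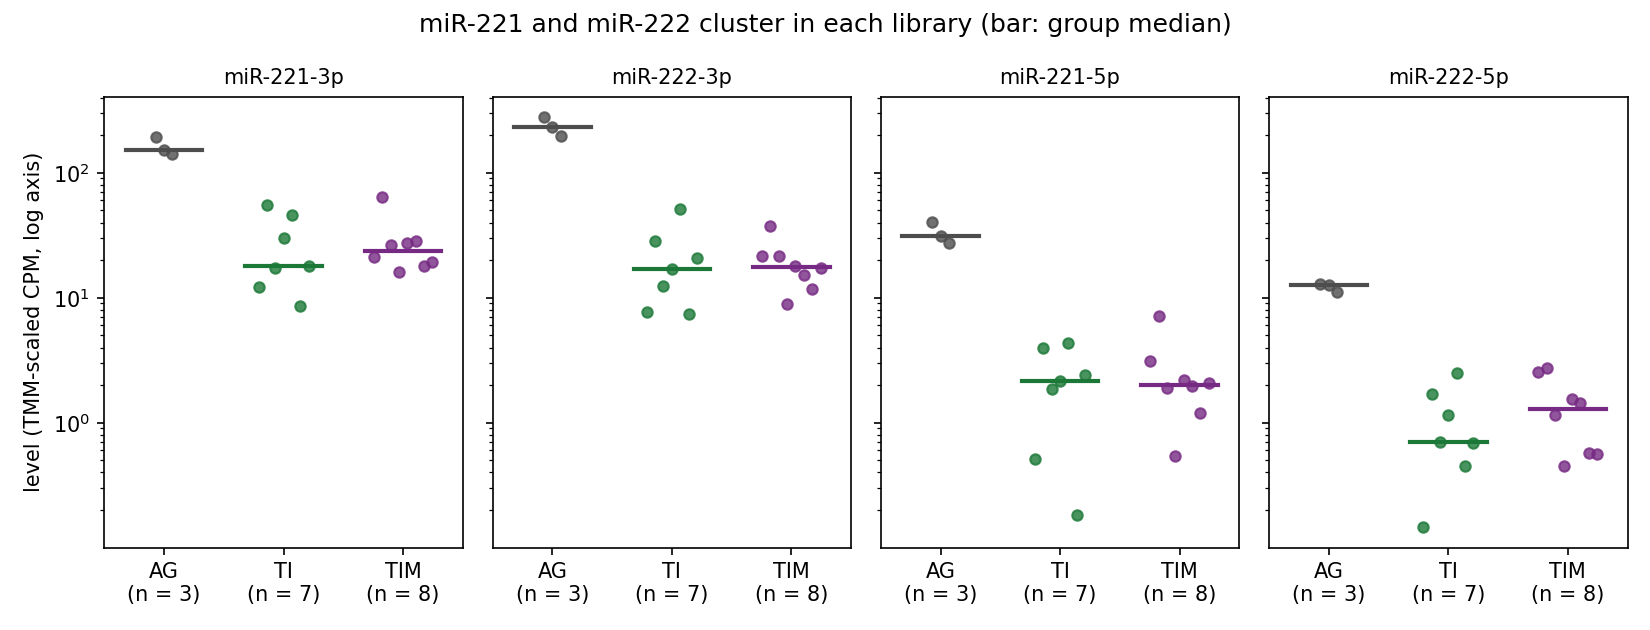
Level of each member in each library, in TMM-scaled CPM on a log axis, with 1 point per library and a bar at the group's median. All 15 tumor libraries lie below the 3 AG libraries for each member, and the TI and TIM libraries overlap.

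miR-222-3p was the most abundant member in AG. Its level there was 279.3, 231.7 and 198.6 CPM, against a lowest value of 7.35, a median of 17.0 and a highest of 51.7 CPM in TI and of 8.95, 17.6 and 37.7 CPM in TIM. The lowest AG library was thus 3.84 times the highest TI library and 5.27 times the highest TIM library. The AG mean of 236.5 ± 40.6 CPM (SD, n = 3) was 11.4 times that of TI, at 20.8 ± 15.5 CPM (SD, n = 7), and 12.4 times that of TIM, at 19.0 ± 8.73 CPM (SD, n = 8). Its place by mean level among the 1966 miRNAs moved from 132 in AG to 316 in TI and 327 in TIM.

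miR-221-3p, with the same seed, was at 194.4, 153.1 and 140.4 CPM in AG. In TI its lowest, median and highest values were 8.53, 18.1 and 55.7 CPM, and in TIM they were 16.1, 23.7 and 63.6 CPM. The groups did not overlap, although the gap was narrower than for miR-222-3p, the lowest AG library being 2.52 times the highest TI and 2.21 times the highest TIM library. The AG mean of 163 ± 28.3 CPM (SD, n = 3) was 6.06 times that of TI, at 26.9 ± 17.9 CPM (SD, n = 7), and 5.92 times that of TIM, at 27.5 ± 15.3 CPM (SD, n = 8). Its place by mean level moved from 156 to 297 in TI and 296 in TIM.

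The 5p arms are the less abundant products of the hairpins. miR-221-5p was at 40.5, 31.0 and 27.6 CPM in AG, with a lowest, median and highest value of 0.181, 2.17 and 4.33 CPM in TI and 0.537, 2.02 and 7.17 CPM in TIM. Its mean was 33.0 ± 6.68 CPM (SD, n = 3) in AG, 15.0 times that of TI (2.20 ± 1.57 CPM, SD, n = 7) and 13.1 times that of TIM (2.52 ± 2.02 CPM, SD, n = 8). No tumor library reached the AG range.

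miR-222-5p was the least abundant member and the most even one in AG, at 12.9, 12.6 and 11.2 CPM. Its values were 0.146, 0.704 and 2.51 CPM (lowest, median, highest) in TI and 0.448, 1.30 and 2.73 CPM in TIM. The mean of 12.2 ± 0.94 CPM (SD, n = 3) in AG was 11.6 times that of TI (1.05 ± 0.82 CPM, SD, n = 7) and 8.89 times that of TIM (1.38 ± 0.88 CPM, SD, n = 8). In the shallowest case a 5p arm rested on 2 reads in a tumor library, which is below the 3 reads that a count of 0 allows, while the 3p arms had at least 81 reads in every tumor library. The order of the 5p arms in tumors is thus known less precisely than that of the 3p arms.

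Within a group, the order of the members by mean level was miR-222-3p, miR-221-3p, miR-221-5p and miR-222-5p in AG. No neighbours in that order overlapped there, and the closest values of the 3p arms were 194.4 and 198.6 CPM. In TI and TIM the order was miR-221-3p, miR-222-3p, miR-221-5p and miR-222-5p, where the ranges of both 3p arms overlapped and the ranges of both 5p arms overlapped. The 3p arms stayed above the 5p arms in each library.

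On the log2(CPM + 1) scale, limma gave a log2 fold change (log2FC) against AG of −3.72 ± 0.50 (SE) in TI and −3.66 ± 0.49 in TIM for miR-222-3p, with Benjamini-Hochberg adjusted p of 7.5e-06 and 7.7e-06. For miR-221-3p it was −2.80 ± 0.50 in TI and −2.64 ± 0.49 in TIM (limma, adjusted p = 0.00015 and 0.00022). The added 1 CPM understates the change of the low 5p arms, for which log2FC was −3.57 ± 0.48 and −3.42 ± 0.47 for miR-221-5p (limma, adjusted p = 7.3e-06 and 1.0e-05) and −2.78 ± 0.35 and −2.56 ± 0.34 for miR-222-5p (limma, adjusted p = 3.3e-06 and 7.5e-06). Their size depended on the value added, and with 0.1 and 5 CPM in its place log2FC of miR-222-5p in TI was −3.76 and −1.52. All 4 members thus passed the threshold of 0.05 in the lower direction in both comparisons. The median log2FC of all tested miRNAs was −0.0094 in TI and 0.18 in TIM. Both comparisons share the same 3 AG libraries. Leaving out any 1 library kept 4 of 4 members past the threshold, with an adjusted p of at most 0.0030 for any member.

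**Figure D2:**
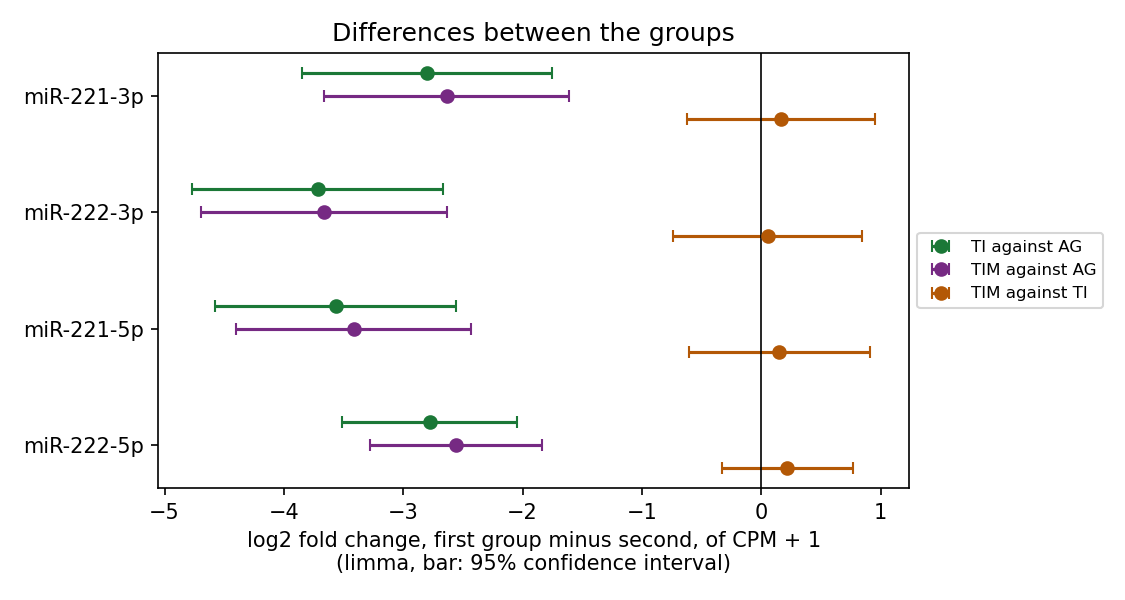
log2FC of each member in the 3 comparisons, from limma on log2(CPM + 1), with bars for the 95% confidence interval. The intervals against AG lie below 0 for all 4 members, from −4.77 to −1.61 in all, and those of TIM against TI include 0.

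Between the tumors, log2FC of TIM against TI was 0.17 (95% confidence interval −0.62 to 0.95) for miR-221-3p and 0.05 (−0.74 to 0.84) for miR-222-3p, with adjusted p of 0.85 and 0.96 in limma. For miR-221-5p it was 0.15 (−0.60 to 0.91) and for miR-222-5p 0.22 (−0.33 to 0.77), with adjusted p of 0.86 and 0.69 in limma. None of the 4 passed, where 5.23% of the tested miRNAs did in either direction; unadjusted p ran from 0.42 to 0.89, and edgeR and DESeq2 called 0 members too. Without TMM factors log2FC was 0.70, 0.58, 0.51 and 0.52 for miR-221-3p, miR-222-3p, miR-221-5p and miR-222-5p, beside 0.49 for the median of all tested miRNAs. The sign turned for miR-222-3p under edgeR, DESeq2 and median ratio scaling and for all but miR-222-5p when single libraries were left out. The intervals leave room for a difference of up to about 0.95 on the log2 scale.

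The 3p arms did not fall by the same amount. In each AG library miR-222-3p was above miR-221-3p, with a ratio of miR-221-3p to miR-222-3p of 0.696, 0.661 and 0.707. In TI the ratio ran from 0.876 over a median of 1.40 to 1.96, and in TIM from 0.968 over 1.53 to 1.86, so that miR-221-3p was the higher of the pair in 5 of 7 TI and 7 of 8 TIM libraries. No tumor library overlapped with AG. Since both miRNAs share a library, this ratio does not depend on its scaling.

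The log2 ratio of miR-221-3p to miR-222-3p (of CPM + 1) was −0.54 ± 0.05 (SD, n = 3) in AG against 0.38 ± 0.45 (SD, n = 7) for TI and 0.49 ± 0.33 (SD, n = 8) for TIM. The difference from AG was 0.91 in TI and 1.03 in TIM, with two-sided exact permutation p of 0.017 and 0.012, the smallest that these group sizes allow, and 0.025 each after Benjamini-Hochberg adjustment over the 9 ratio comparisons. TIM and TI differed by 0.11 (exact permutation p = 0.57). Without any 1 of the AG libraries the smallest p that TI against AG allows is 0.056, so that call needs all 3.

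The arms of Mir221 also shifted against each other. The ratio of miR-221-3p to miR-221-5p was 4.81 to 5.09 in AG, 7.46 to 47.0 in TI with a median of 13.8, and 6.71 to 30.0 in TIM with a median of 13.2, again with no overlap between AG and tumors. The highest, 47.0 in TI library 6, was 94 reads over 2 reads and is thus imprecise. On the log2 scale the difference was 0.77 in TI and 0.78 in TIM (two-sided exact permutation p = 0.017 and 0.012, the smallest possible, adjusted 0.025). With 5 CPM added, a value above the level of miR-221-5p in most tumor libraries, the difference was −0.16 and −0.094. On whole reads with 0.5 read added it was 1.52 and 1.33, with the same p, an alternative chosen after the values were seen.

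For Mir222 the result depended on the value added before the logarithm. The ratio of miR-222-3p to miR-222-5p was 17.8 to 21.7 in AG, 14.8 to 52.5 in TI and 8.54 to 31.3 in TIM, with medians of 18.3, 17.6 and 16.2 and overlapping ranges. The highest, 52.5 in TI library 1, was 105 reads over 2 reads. The log2 ratio of CPM + 1 differed from AG by −0.94 in TI and −1.10 in TIM (two-sided exact permutation p = 0.017 and 0.012, adjusted 0.025), but 1 CPM is close to the level of miR-222-5p itself in the tumors. With 0.1 CPM added the difference was −0.041 (exact permutation p = 0.87) and −0.43 (p = 0.22), and on whole reads it was 0.086 (p = 0.95) and −0.34 (p = 0.39). TIM and TI did not differ by the test in either arm ratio, with a difference of 0.014 for Mir221 (exact permutation p = 0.94) and −0.16 for Mir222 (exact permutation p = 0.45).

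**Figure D3:**
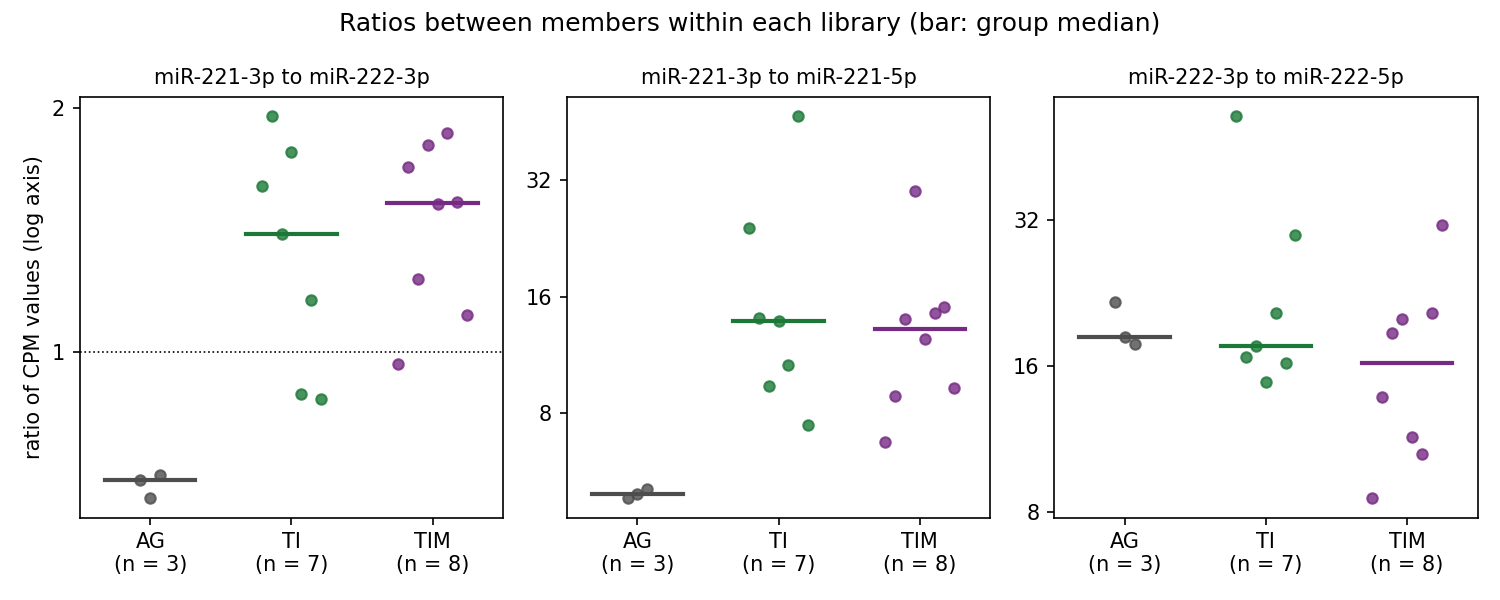
Ratio of CPM values between members of the same library, on a log axis, for both 3p arms and for the arms of each hairpin, with 1 point per library and a bar at the group's median. AG lies below every tumor library in the first and second panel, at up to 0.707 and 5.09, and within the range of the tumors in the third; the dotted line marks equal levels.

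The tumors differed among themselves more than the AG did. The highest library was 6.53 times the lowest in TI for miR-221-3p and 1.39 times in AG. TIM library 2 was the highest TIM library for each member, with 63.6 CPM of miR-221-3p, 37.7 of miR-222-3p, 7.17 of miR-221-5p and 2.73 of miR-222-5p. TI library 5 was the highest TI library for all but miR-221-3p, of which TI library 2 held the most, and TI library 6 had the least of both 3p arms.

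Within the tumor groups the members moved together from library to library, over 8 relations of log2(CPM + 1) that were computed. In the 7 TI, miR-221-3p and miR-222-3p had Pearson's r = 0.89 and Spearman's rho = 0.93 (exact permutation p = 0.0083 and 0.0067, adjusted 0.013 and 0.027). In the 8 TIM the values were r = 0.85 and rho = 0.67 (exact permutation p = 0.014 and 0.083, adjusted 0.016 and 0.083). Without the 2 libraries farthest from the median of miR-221-3p, r was 0.82 in TI and 0.36 in TIM, so the relation in TIM rests on those libraries.

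The arms of a hairpin were related in a like way. For miR-221-3p and miR-221-5p, r was 0.93 and rho 0.93 in TI (exact permutation p = 0.0028 and 0.0067, adjusted 0.0085 and 0.027), and r was 0.87 and rho 0.69 in TIM (exact permutation p = 0.019 and 0.069, adjusted 0.019 and 0.079), where r was 0.88 and 0.23 without the 2 farthest libraries. For miR-222-3p and miR-222-5p, r was 0.94 and rho 0.86 in TI (exact permutation p = 0.0032 and 0.024, adjusted 0.0085 and 0.032) and r 0.82 and rho 0.83 in TIM (exact permutation p = 0.011 and 0.015, adjusted 0.015 and 0.031), with r of 0.90 and 0.62 without those. The 5p arms had r = 0.87 and rho = 0.86 in TI (exact permutation p = 0.0067 and 0.024, adjusted 0.013 and 0.032) and r = 0.85 and rho = 0.86 in TIM (exact permutation p = 0.0014 and 0.011, adjusted 0.0085 and 0.029), and r of 0.91 and 0.80 without the 2 farthest. The relation of miR-221-3p with miR-221-5p in TIM thus also rests on 2 libraries. No batch is given by the labels or the columns, so no values within batches could be computed.

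**Figure D4:**
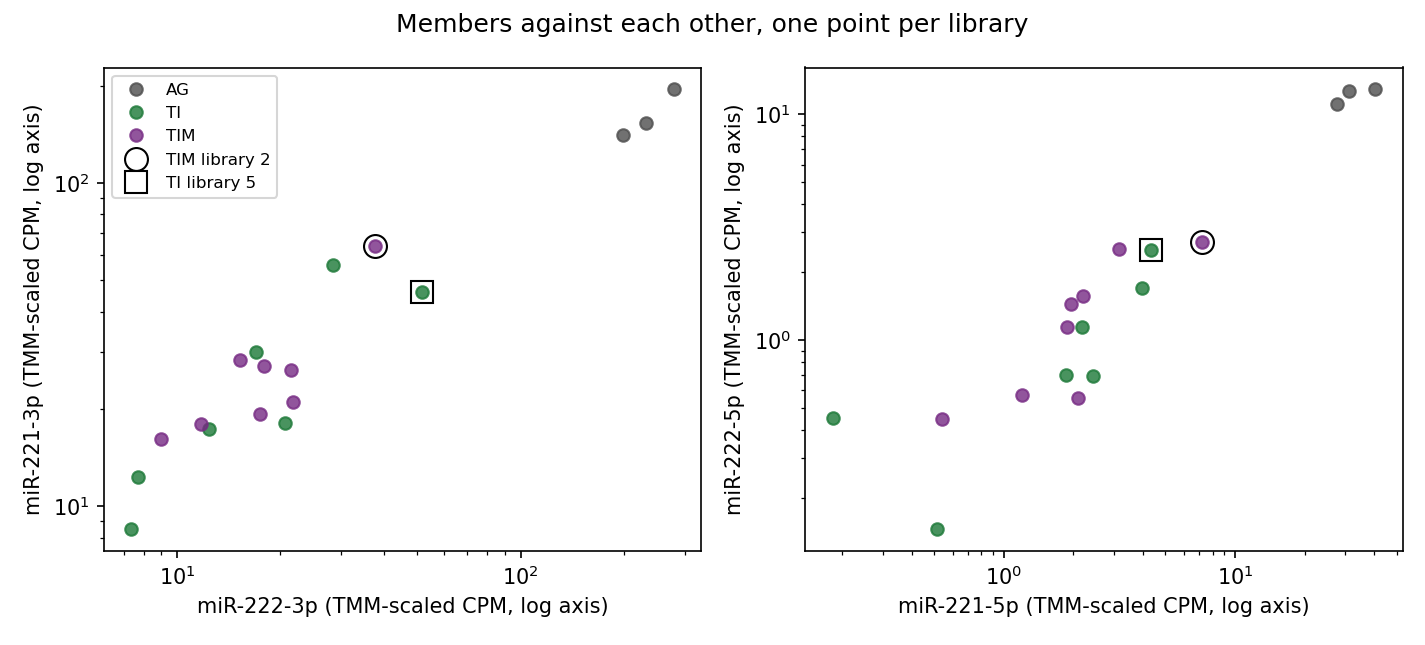
Levels of both 3p arms and of both 5p arms against each other, in TMM-scaled CPM on log axes, with 1 point per library. The AG lie apart at the upper right and the TI and TIM form a common cloud, in which TIM library 2 (circle) and TI library 5 (square) are among the highest.

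Over all 18 libraries, which includes the difference between AG and tumors, the miRNAs most like miR-221-3p among the 399 with a mean of at least 10 CPM were miR-222-3p (Pearson's r = 0.961), miR-365-3p (0.933), miR-10a-5p (0.932), miR-10a-3p (0.928) and miR-152-5p (0.917). With group means subtracted, r with miR-222-3p was 0.879, and with the other 4 it was between 0.708 and 0.778, at places 10 to 3 among the 399. For miR-222-3p they were miR-10a-3p (0.974), miR-10a-5p (0.962), miR-221-3p (0.961), miR-365-3p (0.958) and miR-152-5p (0.949). With group means subtracted miR-221-3p came first of the 399 with r of 0.879. The other 4 were then between 0.764 (miR-365-3p) and 0.865 (miR-10a-3p), at places 10 and 3. Some miRNAs not named here were thus closer within groups than some of those named. These coefficients describe points that share libraries and scaling. Of this company, miR-10a-5p, a miRNA encoded within a Hox gene cluster, was at 61736 CPM on average in AG, 1843 in TI and 2285 in TIM, and miR-365-3p was at 99.0, 2.29 and 3.48 CPM.

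X-linked miRNAs moved in both directions. Of 155 miRNAs that RefSeq places on the X chromosome, 77 were tested. In TI against AG 30 rose, 23 fell and 24 did not pass (limma), with a median log2FC of 0.26 beside −0.0094 for all tested miRNAs, of which 26.4% rose and 29.3% fell. Many of those that rose in TI were below 1 CPM on average in AG, among them the arms of miR-465a, miR-743a, miR-743b and miR-871. These passed the filter through tumor libraries. In TIM 7 rose, 21 fell and 49 did not pass, with a median of 0.22 beside 0.18 for all tested miRNAs, of which 25.5% rose and 25.9% fell. The largest changes in TI were in miR-881-3p (log2FC 6.40), miR-871-3p (5.62), miR-741-3p (5.31) and miR-465b-5p (5.12), all higher and with wide spreads, as for miR-881-3p with 1798 ± 1928 CPM (SD, n = 7) in TI beside 7.69 ± 7.32 CPM (SD, n = 3) in AG. In TIM they were in miR-325-3p (3.47), miR-325-5p (3.38), miR-450a-5p (−3.14) and miR-384-3p (3.11).

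Other miRNAs known to target the Cip/Kip inhibitors, namely miR-17-5p, miR-20a-5p, miR-20b-5p, miR-93-5p, miR-106a-5p, miR-106b-5p, miR-25-3p and miR-92b-3p, were given the same comparison. Of these 8, in TI none passed in the higher direction, where 26.4% of all tested miRNAs did. miR-20b-5p fell, from 3.57 ± 2.60 CPM (SD, n = 3) to 0.524 ± 0.526 CPM (SD, n = 7), with a log2FC of −1.50 (limma, adjusted p = 0.025), where 29.3% fell. Those that did not pass had a positive log2FC in TI except miR-106a-5p (−0.13). The largest was 1.94 for miR-17-5p (limma, adjusted p = 0.077). In TIM miR-17-5p rose from 56.5 ± 26.6 CPM (SD, n = 3) to 394 ± 308 CPM (SD, n = 8), with a log2FC of 2.23 (limma, adjusted p = 0.044). None of the list fell in TIM, where 25.5% of all tested miRNAs rose and 25.9% fell. The other 7 in each comparison did not pass, and the median log2FC of the list was 0.96 in TI and 0.94 in TIM. Summed, they stood at 1825 ± 302 CPM (SD, n = 3) for AG, at 3936 ± 1721 CPM (SD, n = 7) for TI and at 4427 ± 2466 CPM (SD, n = 8) for TIM.

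The libraries come from whole tissue, so fewer cells of a type and less RNA per cell cannot be told apart, and a normal adrenal gland holds cortex, medulla and vessels. Among marker miRNAs of other cell types, the endothelial list was lower in every tumor library than in AG, like the cluster. Of its 4 members, 3 were tested and fell in both comparisons (limma), where 29.3% of all tested miRNAs fell in TI and 25.9% in TIM. log2FC was −3.63 in TI and −3.18 in TIM for miR-126a-3p, and −3.36 and −2.97 for miR-126a-5p. The summed level of the list was 38531 to 46094 CPM in AG, 1704 to 6736 CPM in TI and 2428 to 8943 CPM in TIM. Among the tumors, the list did not order the libraries as the cluster did. TI library 5 was the highest TI in both sums. TI library 2 had 89.9 CPM of the cluster and 2770 CPM of the list, and TIM library 3 had 50.9 and 2790 CPM. Of the 3 tested markers, miR-126b-3p was at 0 reads in every tumor library and at 1.31 ± 0.31 CPM (SD, n = 3) in AG. It passed the filter through AG alone and could only fall, so the count rests on the arms of miR-126a.

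Of the 4 smooth muscle markers, miR-143 and miR-145a, 2 fell in TI and all 4 in TIM, with sums of 121588 to 209465 CPM in AG, 15823 to 171457 in TI and 16045 to 101185 in TIM, so that AG and TI overlapped. The 5 fibroblast and stroma markers all fell in TI and 3 did in TIM. Their sums were 2093 to 3317, 354 to 1648 and 242 to 1312 CPM, so that AG and tumors did not overlap here either. Of 6 leukocyte markers 3 fell in TI and 4 in TIM (654 to 1039, 273 to 1372 and 145 to 518 CPM). None of 4 erythroid markers passed (715 to 2471, 344 to 4425 and 172 to 2605 CPM). Of all tested miRNAs, 29.3% fell in TI and 25.9% in TIM.

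Neuronal markers went the other way. Of 4, 3 rose in TI and all 4 in TIM, where 26.4% and 25.5% of all tested miRNAs rose. Their sums were 1011 to 1310 CPM in AG, 5059 to 14295 in TI and 6922 to 21894 in TIM, and miR-9-5p had log2FC of 3.82 and 4.16. None of the 3 neuroendocrine markers, miR-7a-5p, miR-7b-5p and miR-375-3p, passed (49424 to 116747, 28860 to 271810 and 34541 to 244238 CPM). No marker of these 7 lists passed in TIM against TI, where 5.23% of all tested miRNAs did. Of the neuroendocrine markers, miR-7a-5p had the highest mean in each group. miR-375-3p had log2FC of −1.75 in TI and −2.27 in TIM (limma, adjusted p = 0.20 and 0.094), and those of miR-7a-5p and miR-7b-5p lay between −0.29 and 0.39. The part of cell composition in the fall of the cluster was not tested.

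**Figure D5:**
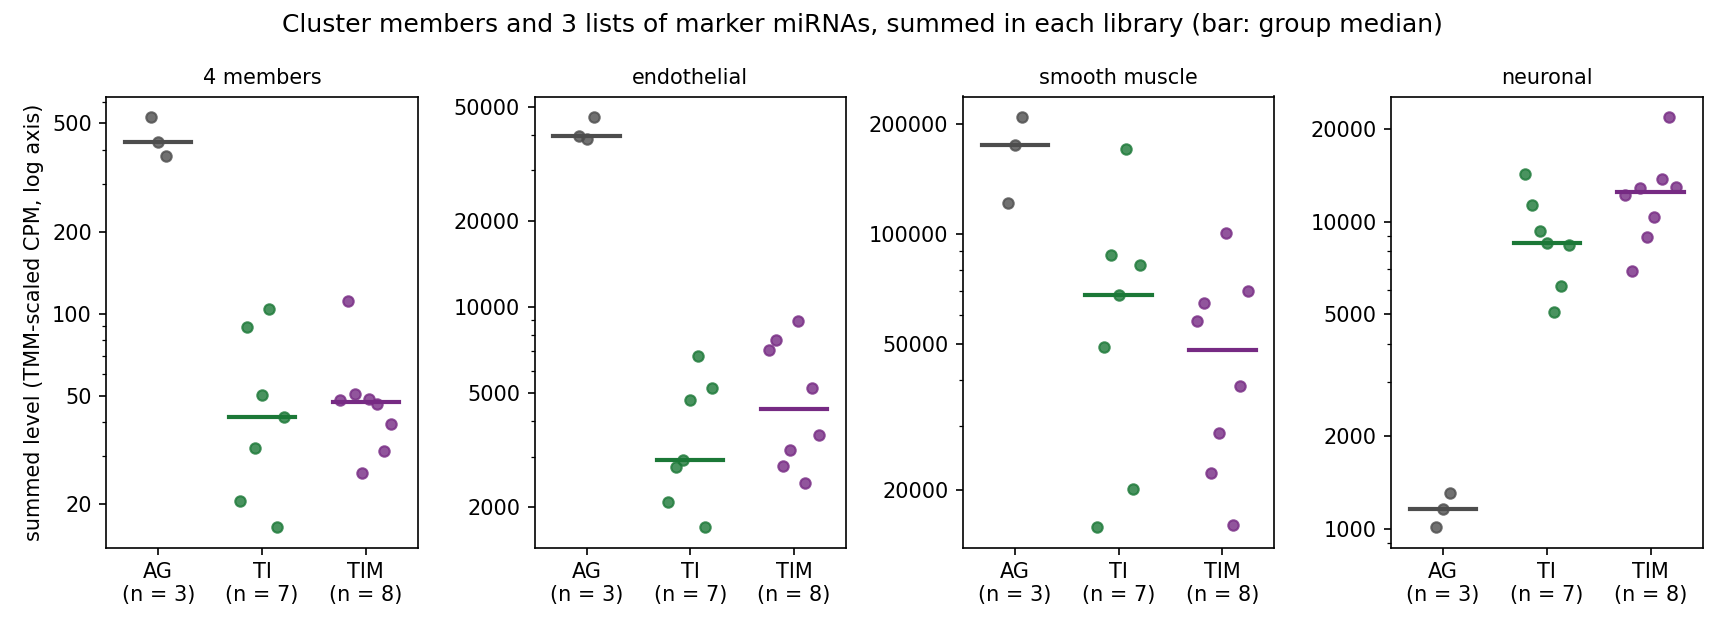
Summed level of the 4 cluster members and of the endothelial, smooth muscle and neuronal marker miRNAs in each library, in TMM-scaled CPM on log axes that differ between panels, with a bar at the group's median. Cluster and endothelial sums are lower in every tumor library than in AG, neuronal sums are higher in every tumor library, and smooth muscle sums of AG and TI overlap. The fibroblast and stroma sums, also lower in every tumor library, are not shown.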

How the data were processed

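Small RNA reads of 18 mouse libraries had been trimmed with cutadapt 2.8, aligned with Bowtie2 2.3.5.1 to mm10 and counted with featureCounts 2.0.0, according to the submitters' processing notes. The deposited values are a signal in CPM per mature miRNA, which the authors computed with edgeR 3.40 on library totals multiplied by TMM factors. Columns with the authors' fold changes, p-values and FDR were not used. Divided by the value of 1 read in their library, 100% of the values came out whole (tolerance 1e-06), and these recovered reads were used as an alternative. No 2 libraries were identical. The treatment of reads with several matches is not given in the sources used here.

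Groups were compared on log2(CPM + 1) by limma 3.58.1 (lmFit, eBayes with a trend; R 4.3.3), fitted to all 18 libraries at once. Of 1966 miRNAs, the 726 that reached 1 CPM in 3 or more libraries were tested, and Benjamini-Hochberg adjusted p under 0.05 was called. Ratios and relations were tested by exact permutation (the double of the smaller tail for ratios) in Python 3.11.15, numpy 2.4.6 and scipy 1.17.1. The scripts were tested on simulated data. Alternatives were other pseudocounts, filters and scalings, edgeR 4.0.16 and DESeq2 1.42.0 on recovered reads, fits of only the groups compared, and leaving out each library. A library's depth sets the value of 1 read, and the level of 3 reads given as a floor covers counting error only, while limma's confidence intervals rest on the spread between libraries. miRNAs named beside the members were the 5 most alike for each 3p arm and up to 4 with the largest change among those that passed in a list; miR-148a-3p, which dominates some libraries, was named after its values were seen. Members and lists were chosen with earlier results of these data known. Sequences are from RefSeq (GRCm38.p6, the build called mm10), where 3 of 4 members had a mature entry, and from GENCODE vM39 (GRCm39).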

Additional observations from a re-analysis of the deposited data

Results flagged for a closer look

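TIM library 2 lay far above the other TIM in CPM for 3 of the 4 members, and on the log2(CPM + 1) scale of the tests for miR-221-3p alone. Its gap to the next library, as a share of the group's range, was 0.744 for miR-221-3p in CPM, 0.596 for the same miRNA on the log2(CPM + 1) scale, 0.608 for miR-221-5p in CPM and 0.554 for miR-222-3p in CPM, each above Dixon's critical value for 8 samples. On the log2(CPM + 1) scale miR-221-5p, at 0.407, and miR-222-3p, at 0.391, were not above it. These were 4 of 22 such comparisons over the tumor groups, and chance flags about 1 in 20 of independent ones with normal values. All 4 come from this library, in members that move together, and miR-221-3p counts on both scales. That rate therefore cannot show an excess here. The same library had the highest leukocyte marker sum of the TIM (518 CPM, next 289 CPM), the highest fibroblast and stroma sum (1312 CPM, next 1009 CPM) and the lowest share of miR-148a-3p (6.53%, next 11.6%). Their part in these levels was not tested.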

How the results depend on the processing

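All 4 members stayed past the threshold against AG under each setting in which they entered the fit. With a filter at a mean of 10 CPM only 2 members entered in either comparison and both passed, since the 5p arms lie below it. Over the settings other than leaving out a library, log2FC in TI ran from −2.999 to −2.303 for miR-221-3p, −3.91 to −3.23 for miR-222-3p, −4.30 to −2.41 for miR-221-5p and −3.76 to −1.52 for miR-222-5p, and in TIM from −2.68 to −2.06, −3.74 to −3.09, −3.95 to −2.36 and −3.30 to −1.44. The extremes of both 5p arms came with 0.1 and 5 CPM added. Scaling moved the median of all tested miRNAs by −0.14 (TI) and 0.23 (TIM) without TMM factors and by 0.35 and 0.39 without miR-148a-3p in the totals, and by 0.43 in TIM against TI without TMM factors.

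For TIM against TI, log2FC of miR-222-3p was −0.0036 with median ratio scaling, −0.15 in edgeR and −0.16 in DESeq2, and 0.58 without TMM factors, where the other members were at 0.70 (miR-221-3p), 0.51 (miR-221-5p) and 0.52 (miR-222-5p). Leaving out 1 library gave −0.049 to 0.38 for miR-221-3p, −0.059 to 0.30 for miR-221-5p, −0.13 to 0.31 for miR-222-3p and 0.092 to 0.36 for miR-222-5p, with no member called.

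Leaving out 1 library, the log2 ratio of miR-221-3p to miR-222-3p differed from AG by 0.82 to 1.01 in TI and 0.98 to 1.10 in TIM, that of miR-221-3p to miR-221-5p by 0.69 to 0.86 and 0.72 to 0.87, and that of miR-222-3p to miR-222-5p by −1.05 to −0.82 and −1.18 to −1.01. The TI calls were lost without any 1 AG library, where no p under 0.056 is possible. TIM against TI gave −0.079 to 0.10 for miR-221-3p to miR-221-5p.

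With 5 CPM added, the difference of miR-221-3p to miR-221-5p was −0.16 in TI and −0.094 in TIM. With 0.1 CPM added it was −0.17 in TIM against TI, and that of miR-222-3p to miR-222-5p was −0.041 in TI and −0.43 in TIM. Ratios of whole reads, an alternative chosen after seeing the data, gave −0.19 for miR-221-3p to miR-221-5p in TIM against TI, and 0.086 in TI and −0.34 in TIM for miR-222-3p to miR-222-5p. The pseudocounts and the level of the 5p arms are of the same size. By Pearson's r, the relations kept their sign and their side of 0.05 under other pseudocounts and without TMM factors. No paired analysis applies, since AG, TI and TIM come from animals of different genotypes. Depth limits the 5p arms in the tumors.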
